A study of Mus musculus with 28 samples.

Results

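Resident macrophages of the mouse peritoneal cavity were compared 3 weeks after an intravenous injection of β-glucan (BG) or of phosphate-buffered saline (PBS), on 4 arrays each. These 8 arrays were taken by their group label alone from a series of 28 arrays in 7 groups of 4. Both groups were wild-type mice on a C57BL/6 background, injected at 7 to 8 weeks of age. The titles give 3 weeks after injection and the protocol gives 3 to 4 weeks, so that the mice were 10 to 12 weeks old when the cells were taken. The dose of β-glucan is not given in the sources used here. The series also holds wild-type mice injected with lipopolysaccharide (LPS), PGN or imiquimod (IMQ), uninjected wild types, and an uninjected knockout of the transcription factor ATF7. In all groups the cells were washed from the peritoneum without a thioglycollate injection and cultured without serum overnight. Cells that had not attached were rinsed off before RNA was extracted. No sort was described, so each array reads the adherent cells as a whole. The protocol speaks of 4 independent samples per group without saying how many mice gave each, and the tests measure the spread between those samples.

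β-Glucans are glucose polymers of fungal cell walls. Macrophages bind them through dectin-1, the product of Clec7a, which signals through the kinase Syk and the adaptor Card9 to NF-κB and drives cytokine release and phagocytosis. In human monocytes, β-glucan is the classical inducer of trained immunity, a lasting change in responsiveness that has been linked to AKT, mTOR, HIF-1α and glycolysis. Most resident macrophages of the mouse peritoneum are large peritoneal macrophages, which are long-lived, take up dying cells, and owe much of their identity to the transcription factor Gata6.

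Levels are log2 hybridisation signals, so that a difference of 1 is a 2-fold change. A background floor of 6.32 was set from the probe sets of odorant and vomeronasal receptors, and 13512 genes above it were tested. Differences are BG minus PBS, given with their standard error (SE). Every adjusted p comes from limma's moderated test fitted to all 28 arrays with Benjamini-Hochberg adjustment over all genes tested, and a gene is called where this p is below 0.05. An exact two-sided permutation test of 4 arrays against 4 cannot give less than 0.0286. It always gives this value where the groups do not overlap, so that it adds nothing to the absence of overlap.

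All 8 arrays carried the marks of macrophages. Csf1r averaged 12.54 in BG and 12.60 in PBS, Cd68 12.65 and 12.60, and Mpeg1 12.11 and 12.14. Cd3d of T cells, Ly6g of neutrophils and Cpa3 of mast cells were above the floor on 0 of the 8 arrays. Cd3e of T cells was above it on all 8 (mean 6.57 in BG and 6.56 in PBS), and S100a8 of neutrophils on 6 (6.46 and 6.35). Csf3r, a receptor of neutrophils and macrophages, averaged 11.30 in BG and 11.54 in PBS (-0.24, adjusted p = 0.0144), and did not pass without PBS replicate 1 (adjusted p = 0.0881). B cell transcripts were present and were lower after BG, as described below. The 4 BG arrays stood apart from the PBS arrays. Arrays correlated at 0.9933 to 0.9946 within BG and at 0.9925 to 0.9949 within PBS over all probe sets, but at 0.9851 to 0.9894 between BG and PBS. The gap was not limited to annotated genes. Of 6954 probe sets above the floor that list no gene, 2591 (37.3%) passed the test in BG against PBS, and 646 (9.29%) did so at 1.5-fold or more. For LPS, PGN and IMQ against PBS the shares that passed were 6.08%, 5.25% and 8.33% of these probe sets and 9.88%, 3.91% and 5.69% of genes. PBS against uninjected wild type gave 22% of these probe sets, BG against uninjected wild type 35.7%, and BG against the mean of the other 3 ligands 35.6%. The sources used here give no date or batch for the arrays, so that an array run that coincides with the BG group and the injection itself cannot be told apart.

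After BG, 5624 of 13512 genes were called (41.6%), 2729 of them higher (20.2%) and 2895 lower (21.4%). Most of the differences were small. In all, 312 called genes (2.31%) differed at least 1.5-fold, 118 upward (0.873%) and 194 downward (1.44%), and the median difference over all genes tested was 0.02. The 4 BG arrays did not overlap the 4 PBS arrays for 40.7% of genes, and 34.5% were both called and free of overlap. Because calls were this frequent, counts in the gene groups below are set beside 20.2% higher and 21.4% lower. For counts against uninjected wild type the shares of all genes were 21.9% higher and 16.2% lower. Against the mean of LPS, PGN and IMQ they were 18.4% and 21.7%.

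**Figure D1:**
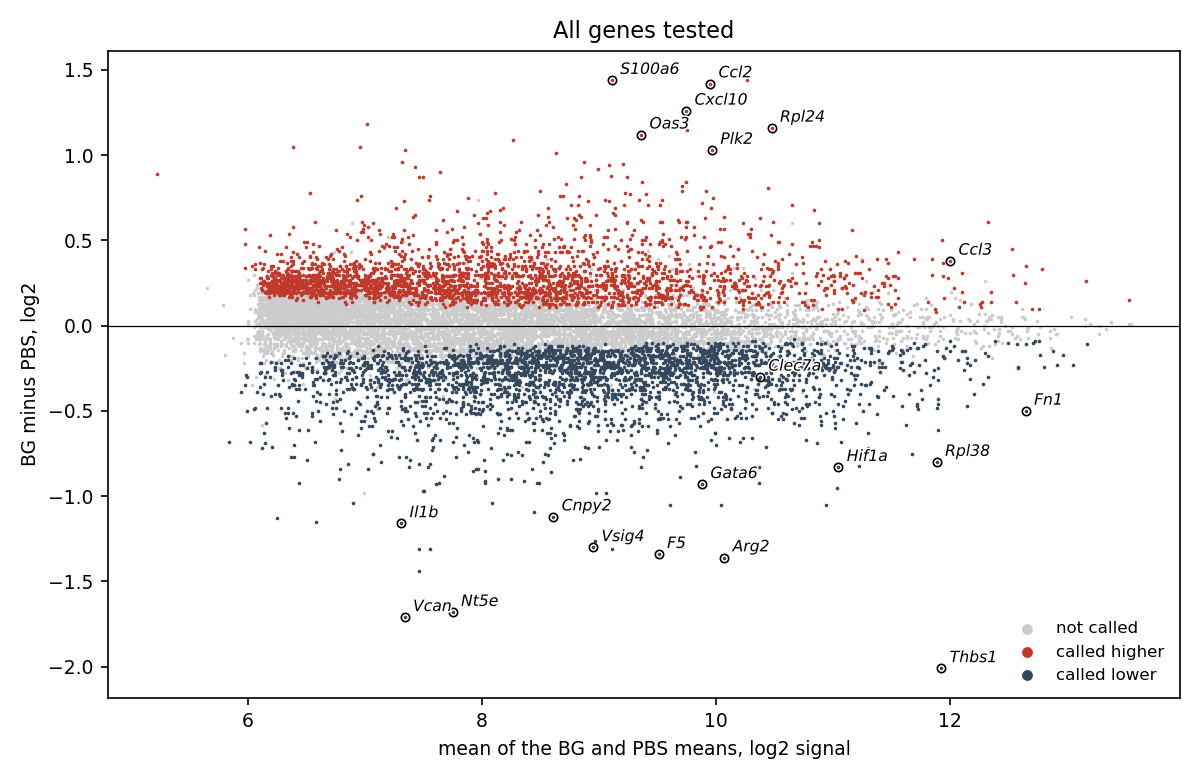
Difference between BG and PBS (log2) against the mean of both groups' mean log2 signals for all 13512 genes tested, with called genes coloured by direction. Thbs1 lies lowest at -2.01 at a high level, and S100a6, Ccl2 and Cxcl10 lie highest among the labelled genes.

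The deepest fall was in Thbs1, which encodes thrombospondin 1, a secreted matrix protein that also helps phagocytes bind dying cells. Its log2 signal was 13.07, 12.82, 12.95 and 12.87 on the 4 PBS arrays and 11.01, 10.89, 10.84 and 10.94 on the 4 BG arrays. The lowest PBS array was far above the highest BG array, and Thbs1 was lower by 4.02-fold (-2.01 ± 0.1 SE, adjusted p = 7.68e-14, n = 4 per group). Vcan, which encodes the matrix proteoglycan versican, read 8.90, 8.00, 7.76 and 8.11 in PBS and 6.83, 6.18, 6.58 and 6.35 in BG, where 1 of the 4 arrays was under the background floor. The difference was -1.71 ± 0.27 (adjusted p = 1.4e-05). Nt5e encodes the ecto-enzyme CD73, which makes adenosine outside the cell. It was at 9.17, 8.12, 8.90 and 8.18 in PBS and 7.01, 7.19, 6.39 and 7.07 in BG, a 3.2-fold difference (adjusted p = 1.9e-06). The PBS arrays of Nt5e were spread over about a log2 unit and all lay above the BG arrays.

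Other steep falls were found in genes of the macrophage surface and of clotting. Ms4a4a, a tetraspan protein of macrophage membranes, was at 8.51, 7.91, 8.14 and 8.13 in PBS and at 6.94, 6.55, 6.85 and 6.61 in BG (-1.44, adjusted p = 6.97e-07). Arg2, the mitochondrial arginase, was at 10.76, 10.66, 10.80 and 10.77 in PBS and at 9.41, 9.25, 9.48 and 9.41 in BG (-1.36, adjusted p = 2.32e-10). In both genes the groups were well separated, and the arrays of Arg2 within a group lay within about 0.2 of each other. F5, coagulation factor V, fell 2.53-fold (10.47, 9.98, 10.23 and 10.04 in PBS, 9.14, 8.61, 8.86 and 8.77 in BG, adjusted p = 1.75e-06). Serpinb10, a protease inhibitor of myeloid cells, fell 2.48-fold (adjusted p = 2.24e-06), and Pde3b, a phosphodiesterase that breaks down cyclic AMP, fell 2.46-fold (adjusted p = 1.89e-09). Nxpe5 fell 2.48-fold (adjusted p = 4.32e-07). Edil3, whose product bridges phosphatidylserine and integrins, and Klri1, a lectin-like receptor, were at or under the floor on all 4 BG arrays. Their falls are therefore bounds, at least 1.79-fold and at least 1.41-fold (adjusted p = 9.97e-05 and 3.69e-05).

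The largest rise among protein-coding genes with established names was in S100a6, whose product is a small calcium-binding protein. It was at 7.68, 8.29, 8.72 and 8.85 in PBS and 9.81, 9.75, 9.95 and 9.78 in BG, a 2.72-fold rise (1.44 ± 0.19, adjusted p = 1.8e-06). The BG arrays lay within 0.2 of each other, whereas the PBS arrays were spread over more than a log2 unit. S100a4, a close relative, was at 8.15, 8.42, 8.94 and 9.16 in PBS and 9.65, 9.27, 9.69 and 9.56 in BG (1.83-fold, adjusted p = 8.63e-05). The same PBS array was lowest for both genes. Plk2, a stress-responsive kinase, rose 2.04-fold (adjusted p = 1.82e-06), from 9.0, 9.52, 9.56 and 9.72 to 10.40, 10.40, 10.62 and 10.50. Pdpn, the membrane glycoprotein podoplanin, rose 2.01-fold (adjusted p = 1.55e-07), from 7.80, 8.00, 8.32 and 8.42 to 9.12, 9.20, 9.06 and 9.19. For both genes every BG array was above every PBS array.

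Further rises concerned a tubulin-folding factor, growth factors and proteases. Tbca, which helps fold β-tubulin, was at 8.30, 8.32, 8.47 and 8.47 in PBS and 9.32, 9.29, 9.39 and 9.39 in BG (0.96 ± 0.077, adjusted p = 5.16e-10). Artn, which encodes the neurotrophic factor artemin, rose 1.9-fold (adjusted p = 4.79e-07). The matrix-degrading protease Mmp13 was at 8.07, 8.72, 8.75 and 8.58 in PBS and 9.42, 9.44, 9.45 and 9.51 in BG (1.9-fold, adjusted p = 0.000701). Plau, urokinase, which activates plasmin, was at 8.73, 9.21, 9.77 and 9.58 in PBS and 10.04, 10.21, 10.17 and 10.21 in BG (1.78-fold, adjusted p = 0.000623). In both proteases the BG arrays were tightly grouped above a wider PBS group. Tnfsf4, which encodes OX40 ligand, a co-stimulator of T cells, was under the floor on all 4 PBS arrays (5.49, 5.72, 6.21 and 6.04) and above it on all 4 BG arrays (7.05, 6.92, 6.97 and 6.72). Its rise was at least 1.51-fold (adjusted p = 3.26e-06).

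**Figure D2:**
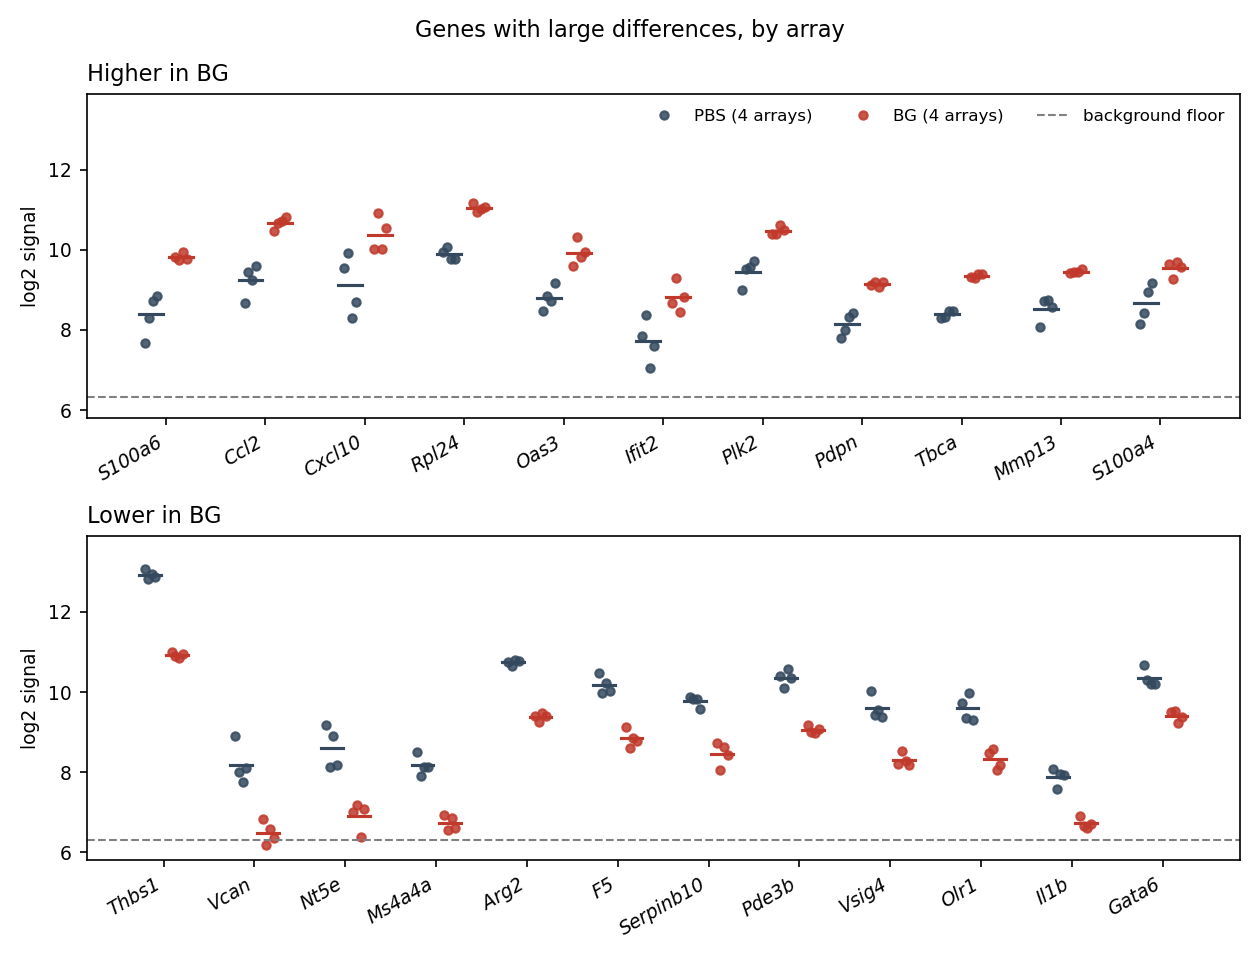
Log2 signal on each of the 4 PBS and 4 BG arrays for genes with large differences, with a bar at each group's mean and a dashed line at the background floor of 6.32. In every gene drawn the BG arrays lie entirely above (top) or below (bottom) the PBS arrays, by 1.44 on average for S100a6 and by -2.01 for Thbs1. The largest rises and falls were named only among called genes free of overlap (34.5% of all genes), so that for them this separation was set by the choice.

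Many genes that mark large peritoneal macrophages fell. Of the 34 list members tested, 18 were called lower (52.9%) and 5 higher (14.7%), with a median difference of -0.27. Gata6 itself was at 10.68, 10.30, 10.21 and 10.19 in PBS and 9.51, 9.52, 9.23 and 9.39 in BG, so that its highest BG array was below its lowest PBS array (-0.93 ± 0.12, 1.91-fold, adjusted p = 7.84e-07). Thbs1, Nt5e and F5, described above, are also members of this list. Vsig4, a complement receptor that clears opsonised particles, was at 10.04, 9.43, 9.55 and 9.38 in PBS and 8.20, 8.52, 8.28 and 8.18 in BG (2.47-fold lower, adjusted p = 1.86e-07). Alox15, a lipoxygenase typical of these cells, was at 12.60, 12.40, 12.26 and 12.28 in PBS and 11.96, 12.00, 11.76 and 11.93 in BG (-0.47, adjusted p = 0.000326). Timd4, a phosphatidylserine receptor of long-resident macrophages, ran from 9.40 to 11.27 in PBS and from 9.77 to 10.46 in BG, and did not pass the test (-0.27, adjusted p = 0.483). Cebpb, a transcription factor that these macrophages need, was higher on all 4 BG arrays (0.35, adjusted p = 0.00061). The other members called higher were Cd5l and Marco, which rose more than Cebpb, and Cd9 and Wt1, which rose less. The count of 5 higher members was 3 without BG replicate 1 or PBS replicate 1, 2 or 4, and 2 without BG replicate 4. Such totals come from whole adherent populations, in which fewer cells of a type and less RNA per cell cannot be told apart.

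Of 27 pan-macrophage genes tested, 12 were called lower and 4 higher, with a median of -0.09. The 4 were Cebpb, Lgals3, Irf5 and Lamp1. The count of 12 was 8 to 10 without any single array, and 8 with the B cell level as a covariate. Adgre1, which encodes F4/80, was at 12.44, 12.33, 12.36 and 12.36 in PBS and 12.26, 12.21, 12.20 and 12.21 in BG, a difference of -0.16 (adjusted p = 0.000678). Maf, a transcription factor of resident macrophages, fell (-0.42, adjusted p = 0.00053). The largest fall in the list was in Fcgr3, which encodes a low-affinity receptor for IgG. It was at 11.40, 11.26, 11.44 and 11.33 in PBS and 10.86, 10.81, 10.75 and 10.79 in BG (-0.55, adjusted p = 1.67e-07). All 3 genes stayed far above the background floor in both groups.

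Receptors for uptake and soluble factors of the clotting and matrix systems were, like the identity genes, more often lower than higher against PBS. In the list for scavenging and apoptotic cell uptake 13 of 35 members were called lower and 2 higher, and in the list for complement, coagulation and matrix 15 of 30 were lower and 3 higher (medians -0.18 and -0.20). Against uninjected wild type the uptake list had 10 lower and 8 higher (median -0.03). In that comparison the clotting and matrix list had 13 lower and 5 higher (median -0.08), and the identity list 19 lower and 4 higher (median -0.31). Olr1, which encodes the scavenger receptor LOX-1 for oxidised lipoproteins, was at 9.74, 9.35, 9.98 and 9.31 in PBS and 8.49, 8.59, 8.06 and 8.18 in BG (2.4-fold, adjusted p = 1.17e-06). Mertk, a receptor kinase that engulfs apoptotic cells, fell by 0.38 on the log2 scale (adjusted p = 5.17e-06). Mfge8, a secreted bridge to dying cells, fell by 0.48 (adjusted p = 2.96e-06). Fn1, fibronectin, was at 13.11, 12.98, 12.80 and 12.71 in PBS and 12.49, 12.34, 12.37 and 12.38 in BG (-0.50, adjusted p = 1.03e-06). The groups did not overlap in any of these 4 genes. Tfpi, the inhibitor of the tissue factor pathway, fell (-0.65, adjusted p = 2.9e-05). Plau was the largest of the 3 rises in the clotting and matrix list. The count of 2 higher members in the uptake list was 1 or 0 without any single array, and 0 without BG replicate 4 or PBS replicate 1, 3 or 4.

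Interferon-stimulated genes that were called were nearly all higher. In the type I interferon list 22 of 42 members were called higher and 1 lower, with a median of 0.40 against 0.02 for all genes. The list's mean level was 9.27 to 9.67 on the BG arrays and 8.85 to 9.21 on the PBS arrays. Oas3, which makes the 2′-5′-oligoadenylates that activate RNase L, was at 8.48, 8.85, 8.71 and 9.18 in PBS and 9.6, 10.32, 9.82 and 9.95 in BG (1.12 ± 0.24, 2.17-fold, adjusted p = 0.000558). Ifit2, which restrains translation of viral RNA, was at 7.85, 8.38, 7.05 and 7.60 in PBS and 8.68, 9.29, 8.45 and 8.82 in BG (2.13-fold, adjusted p = 0.00686). BG replicate 2 was the highest array for both genes, and the groups came close in Ifit2, where the top PBS array was just under the lowest BG array. Zbp1, a sensor of Z-form nucleic acids, rose 1.7-fold (adjusted p = 0.00177), Isg20, an RNA exonuclease, 1.57-fold (adjusted p = 0.000987), Oas2 1.43-fold (adjusted p = 0.00391) and Ifi35 1.37-fold (adjusted p = 0.000482). The 1 member that fell was Trim25, a ubiquitin ligase that activates RIG-I (-0.21, adjusted p = 0.00248). Without PBS replicate 3 the count of higher members was 14 and without BG replicate 2 it was 15.

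Of 18 genes induced by interferon-γ that were tested, 7 were called higher and 1 lower (median 0.31). Cxcl10, a chemokine for activated T cells, was at 9.55, 9.92, 8.29 and 8.70 in PBS and 10.02, 10.92, 10.01 and 10.54 in BG (1.26 ± 0.35, adjusted p = 0.00523). Its PBS arrays were spread over more than the distance between the group means, and the top PBS array was just under the lowest BG array. Gbp3, a guanylate-binding GTPase of antimicrobial defence, rose 1.61-fold (adjusted p = 0.00339), and Socs1, a feedback inhibitor of cytokine receptors, 1.25-fold (adjusted p = 0.000731). Irf8, a transcription factor of the lineage, was the member that fell (-0.27, adjusted p = 7.36e-05). Cxcl9, a relative of Cxcl10, passed narrowly (0.79, adjusted p = 0.045), and its call was lost without any 1 of 6 arrays, with adjusted p between 0.0589 and 0.146. The count of 7 was 3 without BG replicate 2 or PBS replicate 3, 4 without BG replicate 4 or PBS replicate 4, and 11 without BG replicate 3.

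The promoters of Oas3 and Cxcl10 are shown because these were the strongest risers of the interferon lists for which RefSeq gave a promoter with a match to the core of the interferon-stimulated response element, GAAA, any 2 bases and GAAA again, on either strand. The 250 bases before the start are printed 5′ to 3′ along the gene's strand, with the match in capitals. Oas3 (GRCm38.p6, chr5:120777660-120777909, minus strand, match starting 75 bases before the start):
Oas3: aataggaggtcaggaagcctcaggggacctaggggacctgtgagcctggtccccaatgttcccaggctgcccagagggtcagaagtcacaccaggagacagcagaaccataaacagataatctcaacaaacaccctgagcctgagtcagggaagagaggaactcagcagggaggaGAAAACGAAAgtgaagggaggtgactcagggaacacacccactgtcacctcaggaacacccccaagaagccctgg
Cxcl10 (chr5:92348890-92349139, minus strand, match starting 213 bases before the start):
Cxcl10: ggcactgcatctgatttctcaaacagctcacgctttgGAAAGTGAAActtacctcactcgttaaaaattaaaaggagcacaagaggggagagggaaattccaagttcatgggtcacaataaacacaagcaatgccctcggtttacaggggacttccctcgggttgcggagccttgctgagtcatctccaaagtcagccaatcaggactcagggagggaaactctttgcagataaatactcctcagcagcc
RefSeq promoters were found for 31 of the 42 members of the type I list. In windows of 250 bases before to 50 after the start, the motif was present in 16 of their 40 promoters (40.0%), in 6 of the 21 promoters of members called higher (28.6%), and in 3.44% of all 32851 promoters. The called members thus held it no more often than the list did. It was in 2.93% of the promoters of all genes called higher and in 3.03% of those of all genes tested. Both RefSeq windows of Ifit2 lack these letters, which says nothing about the factors that act on it.

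Chemokines for monocytes and neutrophils rose, while interleukin 1β fell. Of 41 cytokine, chemokine and NF-κB feedback genes tested, 18 were called higher and 7 lower (median 0.21). Ccl2, the main attractant of inflammatory monocytes, was at 8.68, 9.44, 9.25 and 9.6 in PBS and 10.46, 10.66, 10.71 and 10.81 in BG (1.42 ± 0.2, 2.67-fold, adjusted p = 2.93e-06). Ccl7, which binds the same receptor, was at 7.5, 7.71, 7.72 and 7.97 in PBS and 8.26, 8.68, 8.45 and 8.63 in BG (1.72-fold, adjusted p = 3.07e-05). The neutrophil attractants Cxcl3 (8.86, 9.30, 8.87 and 8.79 in PBS, 9.73, 10.01, 9.66 and 9.77 in BG) and Cxcl2 (10.27, 10.41, 9.70 and 9.79 in PBS, 10.80, 10.91, 10.87 and 10.82 in BG) rose 1.79-fold and 1.75-fold (adjusted p = 6.96e-05 and 9.8e-05). For these 4 chemokines no BG array fell within the PBS range.

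Tnf, the tumour necrosis factor gene, was at 9.84, 9.97, 9.56 and 9.61 in PBS and 10.22, 10.58, 10.13 and 10.33 in BG (1.48-fold, adjusted p = 0.000497). Ccl3, a chemokine for monocytes and T cells, rose 1.31-fold (adjusted p = 3.22e-05), and Ptgs2, the inducible cyclooxygenase, 1.42-fold (adjusted p = 0.00377). Il1b went the other way. It was at 8.07, 7.59, 7.96 and 7.92 in PBS and 6.92, 6.66, 6.62 and 6.72 in BG, 2.23-fold lower (-1.16 ± 0.17, adjusted p = 4.24e-06), and all BG arrays were within about 0.6 of the background floor. Osm, a cytokine of the interleukin 6 family, also fell (-0.49, adjusted p = 4.68e-05), as did Cxcl16, a membrane-bound chemokine and scavenger receptor (-0.46, adjusted p = 1.72e-06). The eosinophil attractant Ccl24 passed the test with overlapping arrays (-0.67, adjusted p = 0.000437). Il6 and Il10 did not pass the filter on background and were not tested.

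The promoters of Cxcl3 and Cxcl2 are shown, as those of the 2 neutrophil attractants above, for the core of a κB site, GGGA, any 4 bases and CC, on either strand. Each holds 2 overlapping matches, drawn as one run of capitals. Cxcl3 (chr5:90785851-90786100, plus strand, matches starting 73 and 72 bases before the start) and Cxcl2 (chr5:90903649-90903898, plus strand, 97 and 96 bases before) read:
Cxcl3: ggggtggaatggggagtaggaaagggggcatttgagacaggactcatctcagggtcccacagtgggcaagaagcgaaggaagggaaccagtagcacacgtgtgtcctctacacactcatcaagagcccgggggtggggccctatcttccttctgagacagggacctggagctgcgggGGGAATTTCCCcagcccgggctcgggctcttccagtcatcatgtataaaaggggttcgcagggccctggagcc
Cxcl2: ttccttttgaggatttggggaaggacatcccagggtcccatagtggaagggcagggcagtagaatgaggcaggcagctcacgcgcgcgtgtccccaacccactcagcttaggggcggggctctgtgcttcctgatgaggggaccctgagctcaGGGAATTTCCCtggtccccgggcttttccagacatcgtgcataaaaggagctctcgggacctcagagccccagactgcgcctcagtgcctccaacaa
This looser motif is common. It was found in 7 of 14 promoters of list members called higher (50%), in 16 of 32 promoters of all members tested (50%) and in 20.7% of all promoters, so that the called members held it no more often than the list did.

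The receptor of β-glucan and its signalling genes changed little and in both directions. Of 36 members tested, 12 were called higher and 6 lower (median 0.03). Clec7a was at 10.56, 10.41, 10.59 and 10.53 in PBS and 10.32, 10.20, 10.17 and 10.21 in BG (-0.30 ± 0.088, 1.23-fold lower, adjusted p = 0.00828). Syk was at 10.53, 10.51, 10.37 and 10.43 in PBS and 10.68, 10.73, 10.58 and 10.62 in BG (0.19, adjusted p = 0.00201). Both differences were small beside those above, but neither group overlapped the other. Card9 (-0.08, adjusted p = 0.37) and Itgam, the integrin chain of complement receptor 3 (-0.09, adjusted p = 0.211), did not pass the test. Src, the kinase that phosphorylates the receptor's tail, rose 1.46-fold (adjusted p = 0.000143), and the phosphatases Ptpn6 and Ptpn11 rose 1.22-fold and 1.24-fold (adjusted p = 4.21e-07 and 3.83e-06). The phosphoinositide kinase subunits moved apart, with Pik3cd 0.32 higher (adjusted p = 8.22e-06) and Pik3cg at -0.49 (adjusted p = 1.5e-06). Rel, the NF-κB subunit c-Rel, fell by 0.37 (adjusted p = 1.81e-07).

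Other C-type lectins were tested too. Cd209a, a mouse relative of DC-SIGN, was at 8.42, 7.80, 8.55 and 7.71 in PBS and 7.04, 6.53, 6.84 and 6.82 in BG (2.48-fold lower, adjusted p = 2.08e-05). Clec4n, dectin-2, was at 10.19, 10.41, 10.86 and 11.08 in PBS and 10.09, 9.89, 10.04 and 9.89 in BG (-0.66, adjusted p = 0.00518). It was below PBS also after LPS (-0.74, adjusted p = 0.021), PGN (-0.88, adjusted p = 0.00601) and IMQ (-1.22, adjusted p = 0.000191). For Clec4n BG did not differ by the test from uninjected wild type (-0.21, adjusted p = 0.383). Clec4a3 fell (-0.57, adjusted p = 6.26e-08). The galactose-binding lectins Clec10a and Mgl2 rose 1.48-fold and 1.43-fold (adjusted p = 0.000789 and 0.000163). Of the 20 lectins tested, 3 were called higher and 5 lower, and 12 were not called. Sensors of bacteria and viruses were more often lower than higher against PBS, with 14 of 38 called lower and 6 higher. Against uninjected wild type this was not seen, with 7 lower and 11 higher (median 0.02). Against the mean of LPS, PGN and IMQ 17 were lower and 2 higher. Tlr8, an endosomal RNA sensor, was at 11.20, 11.09, 11.31 and 11.22 in PBS and 10.67, 10.42, 10.53 and 10.43 in BG (1.62-fold lower, adjusted p = 1.66e-08). Naip5 and Naip2, which sense bacterial flagellin and secretion rods, were -0.54 and -0.45 (adjusted p = 5.94e-07 and 7.28e-06). Ly96, the co-receptor MD-2 of TLR4, was -0.50 (adjusted p = 1.16e-06), and the adaptor Tirap -0.36 (adjusted p = 1.57e-06). Tlr2 (-0.17, adjusted p = 0.105) and Tlr4 (0.12, adjusted p = 0.237) did not pass, whereas Casp1, the inflammasome protease, rose 1.27-fold (adjusted p = 0.00351).

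In the pathway that trained immunity is best known for, the transcription factor was lower and the enzymes were mixed. Hif1a was at 11.49, 11.45, 11.44 and 11.44 in PBS and 10.60, 10.67, 10.58 and 10.66 in BG. Within each group the arrays lay within 0.1 of each other, and the fall was 1.77-fold (-0.83 ± 0.06, adjusted p = 1.46e-10). Its partner Arnt was -0.34 (adjusted p = 3.04e-07), and Egln3, an oxygen sensor and HIF target, was at 8.46, 7.92, 7.97 and 7.45 in PBS and 7.24, 7.33, 6.96 and 6.95 in BG (1.78-fold lower, adjusted p = 9.6e-05). Across the AKT, mTOR and HIF list 13 of 31 members were called lower and 2 higher (median -0.11). Against uninjected wild type 10 were lower and 10 higher (median -0.02), and against the mean of LPS, PGN and IMQ 15 were lower and 3 higher. Mtor did not pass (0.05, adjusted p = 0.358), Rictor of the second mTOR complex was -0.31 (adjusted p = 2.07e-05), and Prkaa1, the catalytic subunit of AMP-activated kinase, -0.43 (adjusted p = 6.94e-07). The count of 2 higher members was 4 without PBS replicate 3.

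Of 25 glycolytic genes and regulators, 5 were called higher and 5 lower, which is close to the share of all genes. Hk3, a hexokinase of myeloid cells, was at 7.78, 7.98, 8.38 and 8.62 in PBS and 8.71, 8.82, 8.75 and 8.74 in BG (1.48-fold higher, adjusted p = 0.00146), and Tpi1 rose 1.22-fold (adjusted p = 0.00199). Ldhb was -0.77 (adjusted p = 3.22e-05). Ldha, the lactate dehydrogenase chain tied to glycolytic macrophages, did not pass (-0.07, adjusted p = 0.264), nor did Hk2 (-0.16, adjusted p = 0.0537), which passed without BG replicate 1 (-0.19, adjusted p = 0.0412) or PBS replicate 2 (-0.20, adjusted p = 0.032). Without BG replicate 2 or PBS replicate 1 the count of higher glycolytic members was 3. In the tricarboxylic acid cycle and its feeders 6 of 32 members were higher and 6 lower. Cs, citrate synthase, was at 11.09, 11.23, 11.12 and 11.14 in PBS and 10.92, 10.83, 10.78 and 10.81 in BG (-0.31, adjusted p = 3.83e-06), and Got1, a transaminase that feeds the cycle, was -0.46 (adjusted p = 2.11e-06). Acod1, which makes itaconate in activated macrophages, rose 1.34-fold (adjusted p = 0.00423).

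Of 22 cholesterol synthesis genes, 8 were called lower and 0 higher, with a median of -0.21. Nsdhl, which removes a methyl group of the sterol core, was at 9.03, 8.92, 8.82 and 8.82 in PBS and 8.19, 8.41, 8.14 and 8.30 in BG (1.55-fold lower, adjusted p = 1.48e-06). Idi1, an isomerase early in the pathway, was at 8.03, 7.56, 7.13 and 7.06 in PBS and 6.79, 6.77, 6.65 and 6.59 in BG (-0.75, adjusted p = 0.00182). PBS replicate 1 was the highest array for both, and without it the count of 8 was 3. With the B cell level as a covariate it was 2, and Idi1 did not pass (-0.52, adjusted p = 0.0594). Among 29 genes of PPAR and LXR lipid handling 6 were higher and 10 lower than in PBS. Against uninjected wild type 11 were higher and 5 lower (median -0.02), and against the mean of LPS, PGN and IMQ 9 were higher and 10 lower. Pparg, the nuclear receptor, and its target Lpl, lipoprotein lipase, rose 1.38-fold and 1.36-fold (adjusted p = 0.000833 and 0.000202), and Nr1h3, which encodes LXRα, 1.27-fold (adjusted p = 0.00027). The lipid carrier Fabp5 (-0.55, adjusted p = 2e-05) and the cholesterol exporter Abca1 (-0.40, adjusted p = 0.000208) fell.

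Many genes of mitochondrial respiration rose, by small amounts. Of 57 oxidative phosphorylation genes, 32 were called higher and 6 lower (median 0.16). Ndufa1, a small subunit of complex I, was at 7.42, 7.59, 7.52 and 7.51 in PBS and 8.20, 8.22, 8.28 and 8.33 in BG (1.68-fold, adjusted p = 3.91e-08). Ndufs6, another complex I subunit, rose 1.54-fold and Atp5o, of ATP synthase, 1.52-fold (adjusted p = 8.51e-09 and 7.81e-08). Not all subunits followed, since Atp5d, of the same ATP synthase, was at 12.39, 12.40, 12.41 and 12.42 in PBS and 11.98, 12.03, 12.00 and 12.01 in BG (-0.40, adjusted p = 2.59e-10). Of 49 genes for mitochondrial ribosomes and import, 24 were higher and 2 lower (median 0.15). The import factors Tomm5 and Timm10 rose 1.57-fold and 1.54-fold (adjusted p = 9.47e-08 and 3.24e-07), and the ribosomal protein Mrpl18 1.53-fold (adjusted p = 8e-09). Timm8a1 was above the floor on all 4 BG arrays (6.93, 6.90, 6.87 and 6.99) and on 1 of the PBS arrays (6.06, 6.35, 6.00 and 6.18), so that no size is given for its difference (adjusted p = 7.81e-09).

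Ribosomal, nucleolar and proteasomal genes showed a like excess of rises. In cytosolic ribosomal proteins 30 of 55 were higher and 7 lower, in ribosome assembly 20 of 44 and 2, and in the constitutive proteasome 18 of 33 and 3. For cytosolic ribosomal proteins this excess was not seen against uninjected wild type, where 18 were higher in BG and 16 lower (median 0.04). In that comparison 21 assembly genes were higher and 1 lower, and 16 proteasome genes were higher and 6 lower. Of all genes 21.9% were higher and 16.2% lower in BG than in uninjected wild type. The 7 lower ribosomal proteins were 4 without BG replicate 2 or PBS replicate 1, and the 2 lower assembly genes were 1 or 0 without BG replicate 3 or 4 or PBS replicate 1, 2 or 3. Single members of a complex differed widely in opposite directions. Rpl24 was at 9.95, 10.06, 9.78 and 9.78 in PBS and 11.17, 10.95, 11.02 and 11.06 in BG, a 2.23-fold rise (1.16 ± 0.079, adjusted p = 5.53e-11), and its other probe sets gave 0.94 and 0.98. Rpl38, a protein of the same large subunit, was at 12.32, 12.37, 12.25 and 12.20 in PBS and 11.50, 11.54, 11.43 and 11.45 in BG, 1.75-fold lower (-0.80 ± 0.037, adjusted p = 1.32e-14), and its 4 probe sets ran from -0.78 to -0.85. Rps12 and Rpl13 rose 1.6-fold and 1.45-fold (adjusted p = 7.49e-09 and 3.56e-10). Ribosomal protein genes have many near-identical processed copies, whose transcripts the probes may not separate. Psma7 and Psmc1 of the proteasome rose 1.47-fold and 1.47-fold (adjusted p = 1.18e-06 and 2.93e-08), while Psmb5, a catalytic subunit, was at 11.98, 12.14, 12.22 and 12.20 in PBS and 11.63, 11.74, 11.66 and 11.67 in BG (-0.46, adjusted p = 3.96e-06). Mybbp1a of the nucleolus rose 1.36-fold (adjusted p = 9.15e-08). Cnpy2, a protein of the endoplasmic reticulum, was at 9.07, 9.18, 9.34 and 9.08 in PBS and 8.07, 8.03, 8.06 and 8.03 in BG (-1.12 ± 0.053, 2.18-fold lower, adjusted p = 1.32e-14).

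Antigen presentation comprises class I and class II molecules. For class I and the immunoproteasome 9 of 19 members were called higher and 1 lower. That member was B2m, the light chain of class I, at 12.81, 12.86, 12.74 and 12.80 in PBS and 12.72, 12.72, 12.72 and 12.67 in BG (-0.09, adjusted p = 0.0368). Its call was kept without PBS replicate 3 and lost without each of the other 7 arrays. Psmb8, the inducible catalytic subunit that replaces Psmb5, was at 9.0, 9.10, 8.93 and 9.05 in PBS and 9.66, 10.05, 9.62 and 9.83 in BG (1.7-fold, adjusted p = 4.16e-06). Psmb10 and the peptide transporter subunit Tap2 rose 1.49-fold and 1.44-fold (adjusted p = 6.51e-05 and 2.56e-07), and Nlrc5, the transactivator of class I genes, 1.24-fold (adjusted p = 0.00185). For class II, 4 of 14 were lower (28.6%, against 21.4% of all genes) and 0 higher, and 1 was higher without BG replicate 3 or PBS replicate 3 or 4. H2-Eb2 was at 7.76, 8.17, 7.97 and 8.05 in PBS and 6.90, 7.09, 6.96 and 7.14 in BG (1.95-fold lower, adjusted p = 4.15e-06). H2-Ob, which tunes peptide loading in B cells, was -0.50 (adjusted p = 0.000315), and Rfxank, a factor of class II promoters, -0.27 (adjusted p = 5.1e-05).

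B cells carry class II molecules, and their markers were lower in the same arrays. Of 20 B cell markers tested, 8 were called lower and 0 higher (median -0.41). The mean level of the list was 7.93 to 8.02 on the BG arrays and 8.19 to 8.56 on the PBS arrays, without overlap. Cd79a, of the B cell receptor, was at 10.14, 10.42, 9.95 and 10.06 in PBS and 9.31, 9.22, 9.01 and 9.45 in BG (1.86-fold lower, adjusted p = 0.000262), and Spib, a transcription factor of B cells and plasmacytoid dendritic cells, at 8.04, 8.38, 7.98 and 8.08 and 7.21, 7.37, 7.18 and 7.21 (1.84-fold lower, adjusted p = 8.83e-05). With the B cell level as a covariate 4183 genes were called in place of 5624. Of the 163 genes described here with their values, Idi1, Cxcl9, B2m and Csf3r lost their call in that fit, and none reversed. The part of B cells in the class II differences was not tested. Of the other cell types, 2 of 11 T and NK cell markers, 1 of 5 mast cell and eosinophil markers, 0 of 7 neutrophil markers, 2 of 15 mesothelial and stromal markers and 1 of 8 erythroid and platelet markers were called higher. In the same order 0, 1, 3, 2 and 0 were called lower. The 3 neutrophil markers were 1 without BG replicate 2 or PBS replicate 1, and the other counts of 1 or 2 changed by at most 2 without any single array. Their mean levels on the BG arrays were 6.89 to 6.96, 6.88 to 7.00, 7.83 to 7.96, 6.72 to 6.76 and 7.81 to 7.84, and on the PBS arrays 6.74 to 6.98, 6.94 to 7.12, 8.00 to 8.09, 6.68 to 6.75 and 7.66 to 7.80.

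Genes of monocyte-derived macrophages and dendritic cells did not move as one. Of 20 tested, 6 were called higher and 6 lower, with a mean level of 7.74 to 7.80 in BG and 7.72 to 7.89 in PBS. Ccr7, a homing receptor of migrating dendritic cells, was at 9.14, 9.47, 9.57 and 9.68 in PBS and 8.49, 8.55, 8.35 and 8.54 in BG (1.97-fold lower, adjusted p = 0.000163). Itgax, which encodes CD11c, was at 9.50, 9.88, 9.95 and 9.87 in PBS and 10.22, 10.30, 10.28 and 10.35 in BG (1.4-fold higher, adjusted p = 0.00113), and the transcription factors Irf4 and Batf3 rose 1.3-fold and 1.37-fold (adjusted p = 0.00385 and 1.39e-05).

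**Figure D3:**
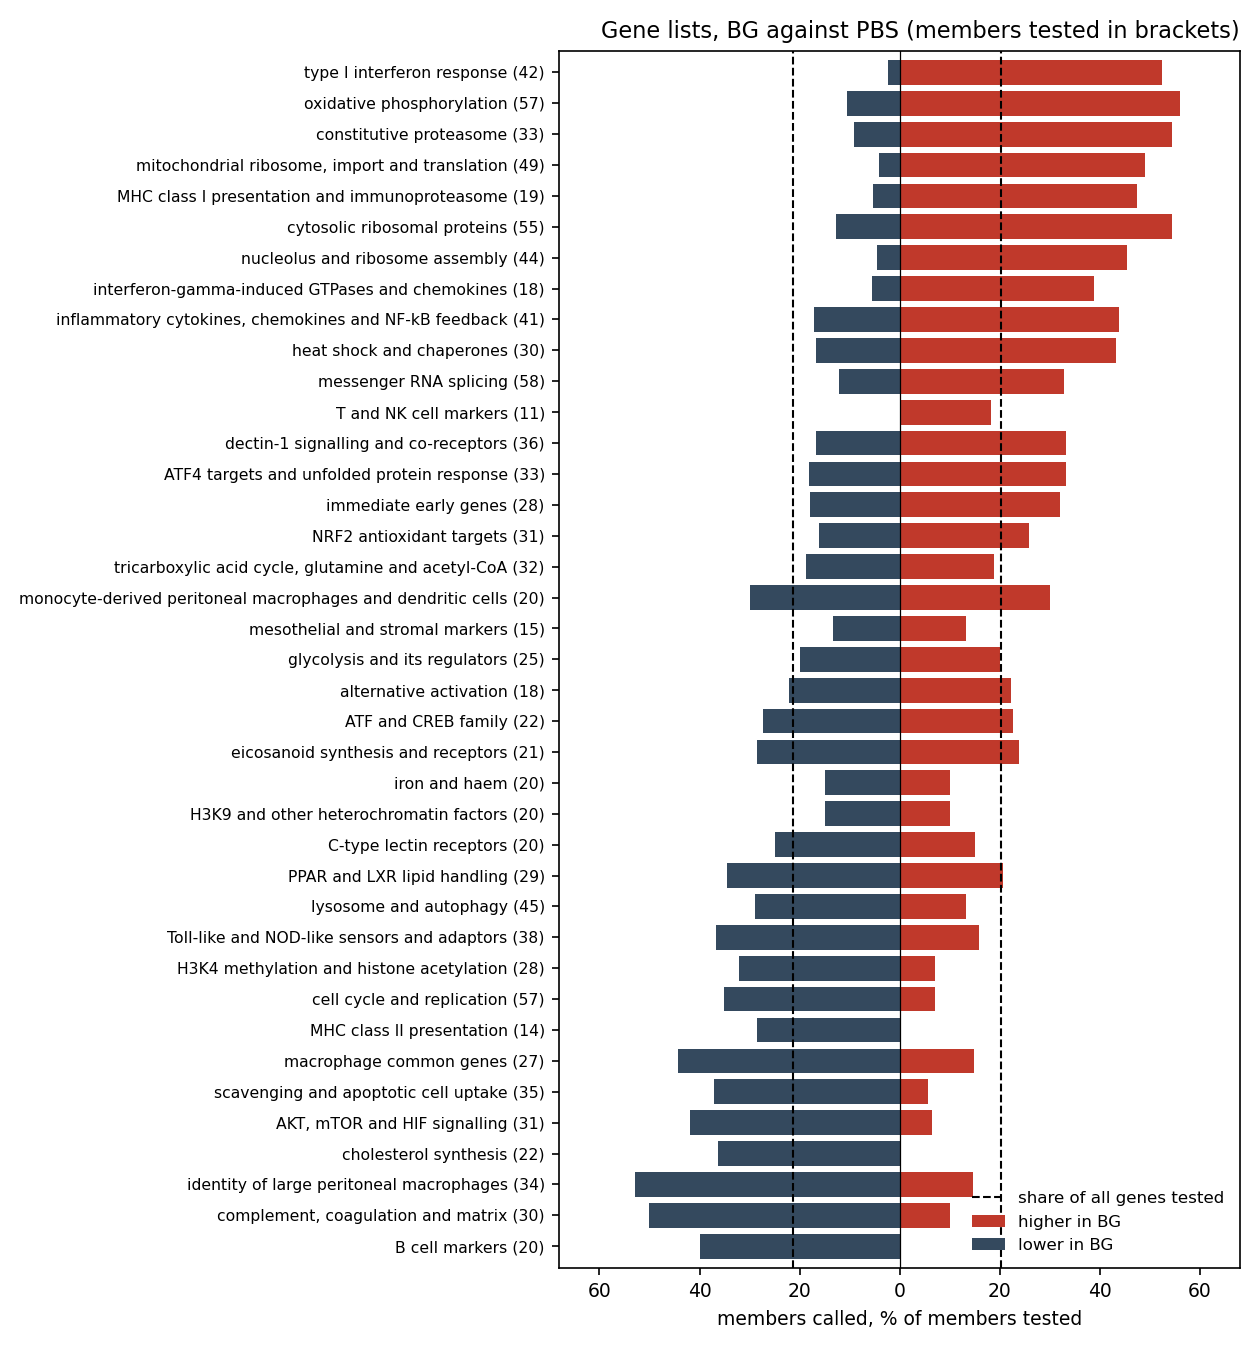
Share of the members tested that were called higher (right) or lower (left) in BG than in PBS for each gene list with at least 10 members tested, with dashed lines at the shares of all genes, 20.2% higher and 21.4% lower. The type I interferon list (22 of 42 higher) and oxidative phosphorylation (32 of 57 higher) stand at the top, and B cell markers, clotting and matrix genes and large peritoneal macrophage genes stand at the bottom.

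In the heat shock list 13 of 30 members were higher and 5 lower, and the 5 were 3 without BG replicate 2 or 4. The chaperones Hspa1a (8.58, 8.48, 8.29 and 8.27 in PBS, 9.04, 9.30, 9.04 and 9.07 in BG) and Hsph1 (8.30, 8.50, 8.53 and 8.53 and 9.21, 9.14, 9.14 and 9.21) rose 1.63-fold and 1.64-fold (adjusted p = 1.34e-05 and 6.76e-07), and the mitochondrial Hspa9 1.55-fold (adjusted p = 8.16e-10). Among ATF4 targets and genes of the unfolded protein response 11 of 33 were higher and 6 lower. Atf4 itself rose 1.34-fold and its target Mthfd2 1.53-fold (adjusted p = 2.04e-07 and 2.56e-05), while Xbp1 was -0.27 (adjusted p = 0.000111). Without BG replicate 2 the count of 11 was 6. Of 28 immediate early genes 9 were higher and 5 lower. Gadd45b, a stress-induced regulator of kinases, was at 8.49, 8.90, 8.78 and 8.70 in PBS and 9.46, 9.50, 9.42 and 9.42 in BG (1.66-fold, adjusted p = 1.92e-07), and Myc and Fosl1 rose 1.51-fold and 1.39-fold (adjusted p = 0.000826 and 0.000167). The nuclear receptors Nr4a1 (8.23, 7.82, 8.37 and 7.95 in PBS, 7.22, 7.25, 7.15 and 7.08 in BG) and Nr4a2 fell 1.89-fold and 1.42-fold (adjusted p = 1.4e-06 and 0.000348).

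Of 57 cell cycle genes 20 were called lower and 4 higher (median -0.15). The mitotic genes Bub1, at 6.76, 7.39, 7.14 and 7.57 in PBS and 6.45, 6.07, 6.68 and 6.29 in BG, and Ube2c, at 7.48, 8.08, 7.75 and 8.17 and 6.94, 6.80, 7.38 and 7.12, were 1.79-fold and 1.75-fold lower (adjusted p = 0.000989 and 0.000143). Bub1 was near the background floor after BG. Ezh2, a histone methyltransferase of dividing cells, was -0.44 (adjusted p = 4.57e-05), whereas Ccnd1, cyclin D1, rose 1.6-fold (adjusted p = 0.00377). The count of 20 was 10 with the B cell level as a covariate, and the count of 4 was 2 without BG replicate 4.

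Atf7, the factor that the study's knockout removed, was at 10.84, 10.76, 10.65 and 10.59 in PBS and 10.53, 10.48, 10.37 and 10.44 in BG (-0.25 ± 0.047, 1.19-fold lower, adjusted p = 9.8e-05). Of 22 ATF and CREB genes 5 were higher and 6 lower, and Creb3l2 had the largest fall (-0.45, adjusted p = 9.75e-05). In heterochromatin factors 2 of 20 were higher (1 without PBS replicate 4) and 3 lower, with the deacetylase Hdac3 at -0.35 (adjusted p = 7.22e-07). For H3K4 methylation and histone acetylation 2 of 28 were higher and 9 lower, with the acetyltransferase Ep300 at -0.26 (adjusted p = 1.18e-05). In the splicing list 19 of 58 were higher and 7 lower, led by Srsf9 (0.61, adjusted p = 5.05e-10), while the core factor Sf3b1 was -0.28 (adjusted p = 2.19e-07).

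Some smaller groups held single genes with clear differences. Trf, transferrin, was at 12.29, 12.07, 11.94 and 11.92 in PBS and 11.25, 11.40, 11.31 and 11.25 in BG (1.68-fold lower, adjusted p = 1.02e-08), in an iron list with 2 of 20 members higher (1 without BG replicate 2 or PBS replicate 4) and 3 lower. In the eicosanoid list (5 of 21 higher, 6 lower) the lipoxygenase Alox5 was -0.46 and prostacyclin synthase, Ptgis, -0.59 (adjusted p = 0.000483 and 0.0021), while the prostacyclin receptor Ptgir rose 1.36-fold (adjusted p = 8.32e-06). Of 45 lysosome and autophagy genes 6 were higher and 13 lower than in PBS. The direction was the other way against uninjected wild type, with 19 higher and 5 lower (median 0.09). Against the mean of LPS, PGN and IMQ 13 were higher and 9 lower. The lysosomal hydrolases Sgsh and Glb1 were -0.63 and -0.55 (adjusted p = 1.24e-06 and 1.98e-08), and Tfeb, the transcription factor of lysosome formation, was 0.31 (adjusted p = 2e-05). Of 31 NRF2 targets 8 were higher and 5 lower, of 18 alternative activation genes 4 and 4. The 8 were 3 with the B cell level as a covariate, and the second 4 was 2 without PBS replicate 4.

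Short non-coding RNAs were read as the transcripts of their loci, not as mature molecules. Of 117 microRNA probe sets 41 were called higher and 4 lower, and of 41 small nucleolar RNAs 22 were higher and 4 lower (2 without PBS replicate 4). With the floor raised by 1 log2 unit the microRNA count was 27. Against uninjected wild type 19 of the 117 microRNA probe sets were higher in BG and 21 lower (median -0.03). Their mean level was 7.36 in BG, 7.22 in PBS and 7.35 in uninjected wild type. Of the 41 small nucleolar RNAs 31 were higher than in uninjected wild type and 1 lower. Snord49b, which guides methylation of ribosomal RNA and lies outside the naming rule for large changes, read 9.47, 9.47, 9.5 and 9.75 in PBS and 11.07, 11.11, 10.95 and 10.81 in BG (1.44, adjusted p = 3.28e-09). Its level after PGN and IMQ, 10.61 ± 0.15 and 10.76 ± 0.16, was close to that after BG. Mir222 was at 6.83, 7.03, 7.26 and 7.15 in PBS and 7.84, 7.99, 8.13 and 7.77 in BG (1.82-fold, adjusted p = 1.56e-06). Its neighbour on the X chromosome, Mir221, chosen after its value was seen, averaged 7.43 ± 0.15 (SD) in PBS and 7.97 ± 0.031 in BG (0.55, adjusted p = 0.00079). The mature 3p forms of both are printed because they share the seed, bases 2 to 8, in capitals. They lie on the minus strand at chrX:19146307-19146329 (miR-221-3p) and chrX:19146901-19146923 (miR-222-3p) in GRCm38.p6:
miR-221-3p: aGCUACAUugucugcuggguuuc
miR-222-3p: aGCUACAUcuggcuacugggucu
Of 110 odorant and vomeronasal receptors above the floor 1 was called higher and 3 lower, far under the share of all genes. Leaving out single arrays gave 1 to 3 higher and 0 to 5 lower. Against uninjected wild type 34 of the 110 were lower in BG and 0 higher (median -0.16), beside 16.2% of all genes lower.

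Set against the mean of the LPS, PGN and IMQ groups, a contrast that leaves out the PBS arrays, BG differed in 5414 genes (40.1%), 2481 higher (18.4%) and 2933 lower (21.7%). In 18.5% of all genes the call came with all 4 BG arrays outside the range of the 12 arrays of these ligands. Thbs1 averaged 12.90 ± 0.14 after LPS, 12.52 ± 0.12 after PGN and 12.73 ± 0.13 after IMQ (SD, n = 4 each), and 10.92 ± 0.075 after BG (-1.80 from their mean, adjusted p = 6.98e-15). Nt5e (-1.52, adjusted p = 2.85e-07), Vsig4 (-1.34, adjusted p = 2.4e-09), Olr1 (-1.33, adjusted p = 1.43e-08) and Gata6 (-1.0, adjusted p = 6.41e-09) were also below the other ligands. S100a6 (1.31, adjusted p = 2.34e-07), Plk2 (1.07, adjusted p = 2.76e-08) and Ccl2 (0.84, adjusted p = 0.000145) were above them. In each of these genes every BG array was outside the range of the 12. The largest differences from the other ligands were named only among called genes with this separation. For those genes it was set by the choice. Gata6 and Ccl2 were named by other rules.

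For interferon genes the values of BG and the other ligands lay close. Against the other ligands 4 of 42 type I members were higher and 4 lower, with a median of 0.01. Cxcl10 averaged 10.37 ± 0.44 after BG, 10.84 ± 0.60 after LPS, 9.94 ± 0.38 after PGN and 9.96 ± 0.66 after IMQ, and BG did not differ from their mean by the test (0.13, adjusted p = 0.755). Oas3 was somewhat higher after BG (0.56, adjusted p = 0.0232) and Ifit2 did not pass (0.30, adjusted p = 0.367). For large peritoneal macrophage genes the same comparison gave 21 of 34 lower and 5 higher (median -0.34), for oxidative phosphorylation 29 of 57 higher and 10 lower, and for B cell markers 13 of 20 lower and 0 higher.

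**Figure D4:**
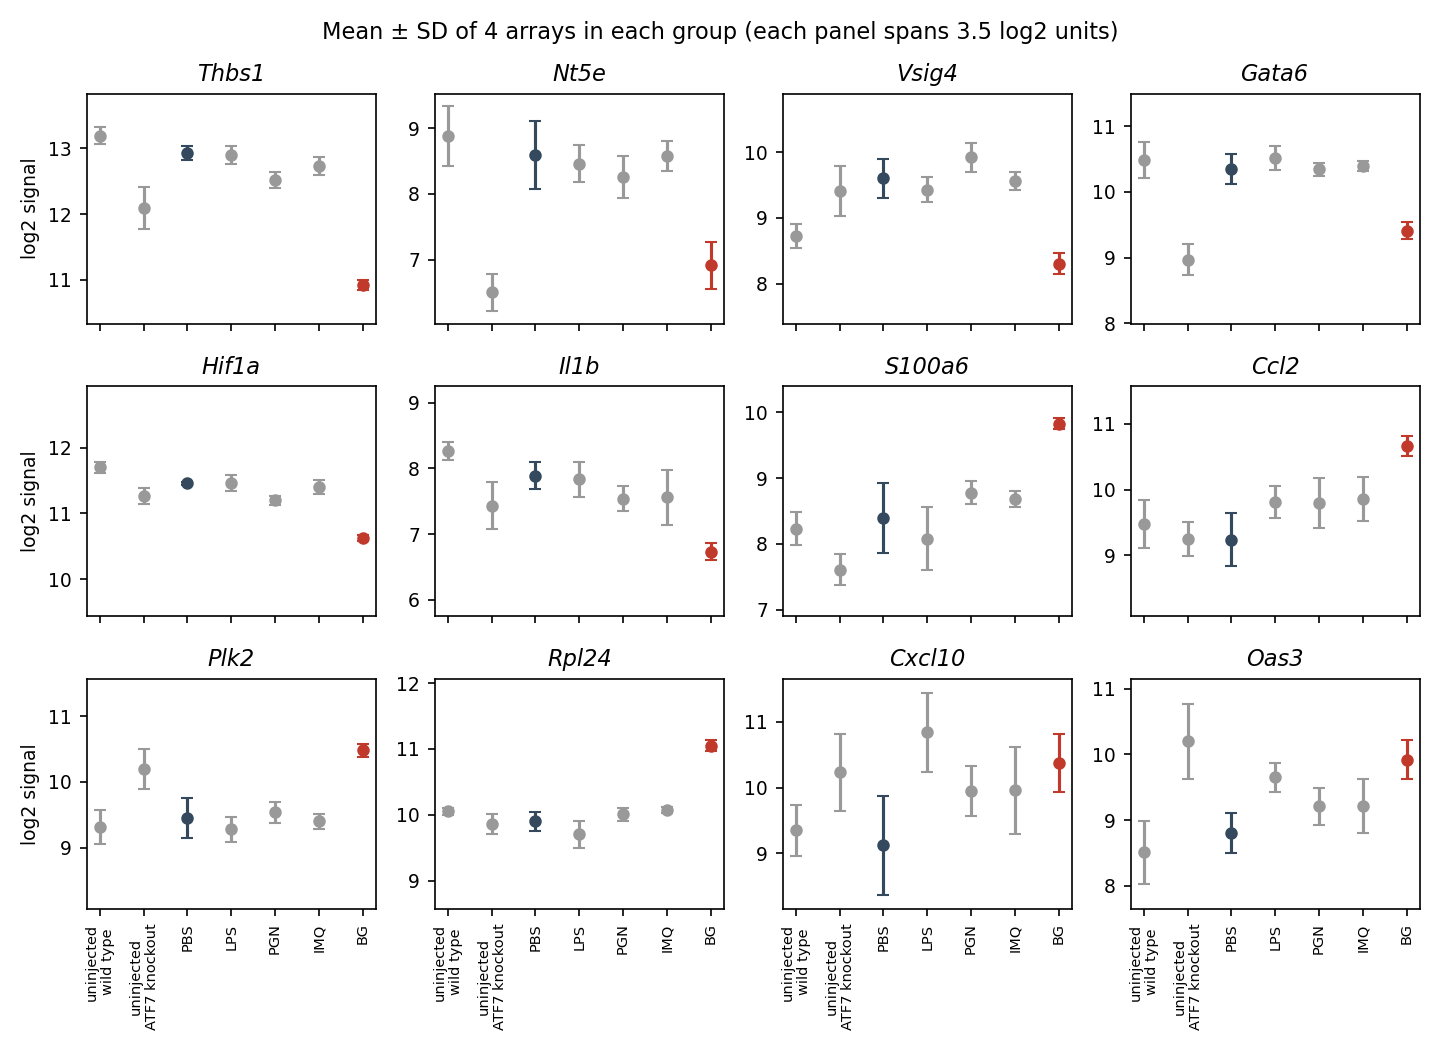
Mean log2 signal ± SD of the 4 arrays in each of the 7 groups for 12 genes, each panel spanning the same range. BG (red) lies alone at the bottom for Thbs1, Vsig4, Hif1a and Il1b and alone at the top for S100a6, Ccl2 and Rpl24, while for Cxcl10 and Oas3 other groups reach a like level. Nt5e and Gata6 are lower still in the uninjected ATF7 knockout.

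Uninjected wild-type mice gave a further control. BG differed from them in 5144 genes (38.1%), 2957 higher (21.9%) and 2187 lower (16.2%). PBS itself differed from them in 4415 genes (32.7%), so that this comparison also holds what sets PBS apart from uninjected mice. Several leading genes differed in the same direction as against PBS, with the BG arrays shared by both comparisons. Thbs1 was -2.27 (adjusted p = 5.05e-15), Nt5e -1.96 (adjusted p = 1.66e-07), Gata6 -1.07 (adjusted p = 8.77e-08), Hif1a -1.07 (adjusted p = 9.22e-13) and Il1b -1.53 (adjusted p = 6.37e-08). S100a6 was 1.60 higher (adjusted p = 3.43e-07), Ccl2 1.18 (adjusted p = 3.3e-05) and Oas3 1.41 (adjusted p = 3.86e-05). Other differences were smaller against this control. Vsig4 averaged 8.72 ± 0.18 in uninjected wild type and 9.6 ± 0.30 in PBS, so that BG at 8.30 ± 0.16 differed from the former by -0.43 (adjusted p = 0.0267). Cd209a did not pass (-0.45, adjusted p = 0.0973), nor did Clec7a (-0.06, adjusted p = 0.624) or Syk (0.07, adjusted p = 0.251). Timd4, which did not differ by the test from PBS, was -1.04 against uninjected wild type (adjusted p = 0.00588). Interferon genes were again mostly higher, with 21 of 42 called higher and 1 lower, while only 7 of 57 cell cycle genes were lower and 4 higher. Of 27 pan-macrophage genes 8 were lower and 7 higher, and of 14 class II genes 4 were lower and 5 higher.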

How the data were processed

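The deposited table holds linear signal intensities of Affymetrix mouse gene arrays, which the authors made with Expression Console and RMA, per the submitters' processing notes. Their versions and the build of the annotation are not stated there. RMA subtracts background, equalises the distributions of the arrays and summarises probes, so that shifts common to all genes are removed. All 28 arrays (7 groups of 4) were read, and median signals ran from 107.1 to 114.6.

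The deposited values were taken to log2 here. Of 35556 probe sets, 21789 have 1 gene symbol in the platform table, 1621 have several and 12146 have none. The floor of 6.32 (80.04 linear) is the 95th percentile of the means of 1210 odorant and vomeronasal receptor probe sets. Probe sets above it on at least 4 of 28 arrays were kept, and the one with the highest mean stood for its gene. Of 740 genes with several kept probe sets, 28 had probe sets called in opposite directions. limma 3.58.1 in R 4.3.3 fitted 1 mean per group with an intensity trend. Tables and plots were made with Python 3.11.15, pandas 2.3.3 and matplotlib 3.10.9. For a gene with every array of its dimmer group at or below the floor, the fold was computed against the floor and is a lower bound. Motifs were searched on both strands of RefSeq promoters of 300 bases (GRCm38.p6).

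Named genes were the 15 largest rises and falls without overlap (predicted genes, small RNAs and odorant receptors left out), up to 5 called members per list and direction by smallest p, 21 fixed genes (19 tested), and the 8 largest differences each way from the other ligands. Differences from the other ligands were ranked only among called genes with every BG array outside the range of the other ligands' arrays. The rule gave 351 genes from 45 lists. With Mir221, added after its value was seen, 163 genes are described with their values. The members and lists were chosen with earlier results of these data known. On simulated data with 13512 genes for BG against PBS, 96% of shifts of 0.5 (log2), 98% of shifts of 1 and 100% of shifts of 2 were recovered, and 9 unshifted genes were called. These data had independent noise for each gene, shifts in a small share of genes and no effect of array or batch. The simulation therefore checks the working of the fit and says nothing about such effects in the real arrays. The number of arrays limits the precision. Alternatives were the filter, normalisation, variance model, samples fitted, array weights, replicate block, a B cell covariate, the probe set per gene and leaving out each array.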

Additional observations from a re-analysis of the deposited data

Results flagged for a closer look

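Among 163 genes in 2 groups, which makes 326 groups of 4 arrays, 13 values lay apart from the other 3 arrays of their group by Dixon's criterion. Chance alone sets apart about 1 in 20 such groups.

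In the PBS group, replicate 1 was low for Tomm5 (8.43, others 8.71 to 8.74), Hsph1 (8.30, others 8.50 to 8.53) and Itgax (9.50, others 9.87 to 9.95). Replicate 2 was high for Cxcl3 (9.30, others 8.79 to 8.87) and Ptgir (9.13, others 8.85 to 8.89). Replicate 3 was low for Ifi35 (8.44, others 8.55 to 8.57), and replicate 4 was low for Rel (10.73, others 10.85 to 10.86) and high for Snord49b (9.75, others 9.47 to 9.5).

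In the BG group, replicate 4 was low for B2m (12.67, others 12.72), and replicate 2 was high for Hspa1a (9.30, others 9.04 to 9.07) and Spib (7.37, others 7.18 to 7.21). Replicate 3 was high for Myc (9.15, others 8.71 to 8.76) and low for Ptgis (9.15, others 9.36 to 9.38). Of these 13 genes B2m lost its call when that array was left out (adjusted p = 0.102), and the others kept theirs.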

How the results depend on the processing

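The 5624 genes called in BG against PBS came to between 4183 (B cell level as a covariate) and 6552 (array weights) over the alternatives that kept all arrays, and to 4837 to 5277 without 1 array. With each array centred on its median, 2250 genes were higher and 3134 lower. Against the other ligands the B cell covariate gave 3312 genes in place of 5414, and leaving out 1 array gave 4590 to 5458. Against uninjected wild type leaving out 1 array gave 4486 to 5178. Of the 163 genes described, none reversed. Cxcl9 lost its call in 10 of the alternatives, Idi1 with the B cell covariate, B2m with that covariate (-0.07, adjusted p = 0.243), in 3 other fits with all arrays and without each array but PBS replicate 3, and Csf3r with that covariate (-0.21, adjusted p = 0.0882) and without PBS replicate 1. Hk2 gained one in 6, and Tlr2 gained one when only the groups compared were fitted (-0.17, adjusted p = 0.0483). The labels give every group replicate numbers 1 to 4, but same-numbered BG and PBS arrays deviated with correlations of 0.06, 0.13, 0.17 and -0.02, so that the numbers were not taken as pairs. The fit with a replicate block called 5667 genes and changed none of the calls of the 163. Differences of genes near the floor of 6.32 rest on signals close to background.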
